A study of Homo sapiens with 6 samples.

Results

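UCA1 and LUARIS are long noncoding RNA genes, 2 of the 14884 genes tested and of the 1398 long noncoding RNA genes among them. They were taken by name and had been chosen by the size of their difference between the groups compared here. Their own levels and differences are therefore given as a description, with no test. Of 53617 probe sets on the array, 3 carried these names, 2 for UCA1 (16859205 and 16869939) and 1 for LUARIS (17057062). All 3 are shown.

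The 6 whole-transcript arrays measured total RNA of U-2 OS, a human osteosarcoma cell line, collected 4 days after infection with a retroviral vector and after puromycin selection. On 3 arrays the vector carried wt-progerin, the truncated and permanently farnesylated lamin A of Hutchinson-Gilford progeria without a further change. On the other 3 it carried S22A-progerin, in which alanine replaces the serine that this name gives, so that it cannot be phosphorylated. Both groups thus carry progerin on top of the cells' own lamins, and cells without progerin were not analysed here. All values are log2 expression after RMA, the authors' background correction, normalization between arrays and summary per probe set. Differences are S22A-progerin minus wt-progerin with n = 3 arrays per group, which the labels describe as independent replicates. The arrays had medians between 6.04 and 6.09.

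Long noncoding RNAs are transcripts without a long open reading frame that act by binding proteins, other RNAs or chromatin, or that merely accompany transcription of their locus. UCA1, named for urothelial cancer, was described in bladder carcinoma and is known in many carcinomas as a mostly cytoplasmic RNA. It is reported to bind proteins such as the splicing regulator PTBP1 and to take up microRNAs. LUARIS is also listed as lncRNA32, under which name it is reported to support the transcription of interferon-stimulated genes together with the RNA-binding protein HNRNPU and the transcription factor ATF2. In RNA of bulk cultures, fewer cells that express a gene and less of its RNA per cell cannot be told apart.

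LUARIS lies on chromosome 7 inside the protein-coding gene HECW1 and on its opposite strand, and UCA1 lies on chromosome 19 at a place where RefSeq also sets the protein-coding gene model LOC124900418. Of the 2 members, 1 matched the RefSeq promoter table, LUARIS. Its 300 bases at chr7:43522493-43522792 (GRCh38.p14, minus strand), 250 before the annotated start and 50 after it, are printed 5′ to 3′ because LUARIS was the long noncoding RNA with the largest fall. Capitals mark the stretch that matches the repeat unit of the p53 response element.
LUARIS: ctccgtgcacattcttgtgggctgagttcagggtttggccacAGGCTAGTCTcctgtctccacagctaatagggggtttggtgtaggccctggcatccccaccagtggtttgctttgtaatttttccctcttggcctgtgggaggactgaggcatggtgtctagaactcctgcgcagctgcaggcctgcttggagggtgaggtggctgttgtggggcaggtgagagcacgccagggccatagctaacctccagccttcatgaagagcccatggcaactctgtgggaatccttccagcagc
On both strands 13 motifs were searched, here and in all 35116 promoters of the table, which have the same length. The p53 repeat unit, which reads alike on both strands, had a match that begins at base 43 of the LUARIS sequence, and 6.63% of all promoters held one. The other 12 motifs had no match in this window. Of sites bound by signal-dependent factors, the AP-1 site TGANTCA stood in 7.71% of all promoters, the NF-kB site, searched by its name, in 5.91%, the TEAD site GGAATG in 14.0% and the CArG box of SRF in 1.29%. The cyclic AMP element TGACGTCA was found in 1.85%, the C/EBP site TTGCNNAA in 10.5%, the ETS site CCGGAA in 17.2% and the hypoxia element ACGTG in 21.4%. The E-box CACGTG, which holds the letters of the hypoxia element, was found in 7.26%. Of core promoter elements, the TATA box TATAAA stood in 11.5%, the CCAAT box in 34.6% and the GC box GGGCGG in 45.0%. The LUARIS window had 3 CpG dinucleotides against a median of 14 over all promoters, at a GC content of 57.7% against a median of 58.7%.

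UCA1 was higher in S22A-progerin cells on both of its probe sets, but by very different amounts. On probe set 16859205 its level was 6.94, 6.64 and 6.65 in wt-progerin replicates 1 to 3 and 9.52, 9.50 and 9.45 in S22A-progerin replicates 1 to 3. The S22A-progerin arrays lay close together and far above every wt-progerin array, and among the latter replicate 1 was the highest. Group means were 6.75 ± 0.17 and 9.49 ± 0.034 (SD, n = 3), a difference of 2.74 or 6.70-fold. The fold between single arrays ran from 5.71, for the closest pair of arrays across the groups, to 7.31 for the farthest.

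On probe set 16869939 the level of UCA1 was 6.22, 5.90 and 6.04 in wt-progerin and 6.57, 6.69 and 6.36 in S22A-progerin. The groups again did not overlap, but the gap between the nearest arrays was 0.14, less than the range of 0.32 within wt-progerin or of 0.33 within S22A-progerin. Group means were 6.06 ± 0.16 and 6.54 ± 0.16 (SD, n = 3), a difference of 0.48 or 1.40-fold. The wt-progerin mean lay between the lowest and highest array median, 6.04 and 6.09. Whether this probe set read above background was not tested. Replicate 1 was the highest wt-progerin array and replicate 2 the lowest on both probe sets, while the order of the S22A-progerin arrays differed between them. With both probe sets averaged the UCA1 difference was 1.61.

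The differences of the UCA1 probe sets lay 2.26 apart on the log2 scale. Among 623 genes with exactly 2 probe sets the median gap was 0.137, and 1 gene, UCA1 itself, had a gap of this size or more. UCA1 was chosen for its large difference, and a gap this wide can hardly arise where both differences are small. Genes with differences of like size were not compared, so nothing about UCA1 is read from this count. LINC00312, a long noncoding RNA with a large fall, also had 2 unequal probe sets, at -1.76 and -0.63. LINC-PINT, a p53-linked long noncoding RNA, had 3, at 1.64, 1.68 and 0.64. Which stretch of UCA1 each probe set reads was not analysed here, and which exons, strand or isoform lie behind the unequal differences was not tested. Every comparison of UCA1 with other genes below uses probe set 16859205, the one with the higher mean over the 6 arrays.

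LUARIS was lower in S22A-progerin cells. Its level was 9.19, 9.22 and 9.20 in wt-progerin and 7.40, 7.15 and 7.11 in S22A-progerin. The wt-progerin arrays lay within 0.03 of each other, while the S22A-progerin arrays spanned 0.29, with replicate 1 the highest. Group means were 9.21 ± 0.017 and 7.22 ± 0.16 (SD, n = 3), a difference of -1.99 or 3.97-fold lower. The fold between single arrays ran from 3.47 to 4.33, and the gap between the nearest arrays of the groups was 1.79.

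**Figure D1:**
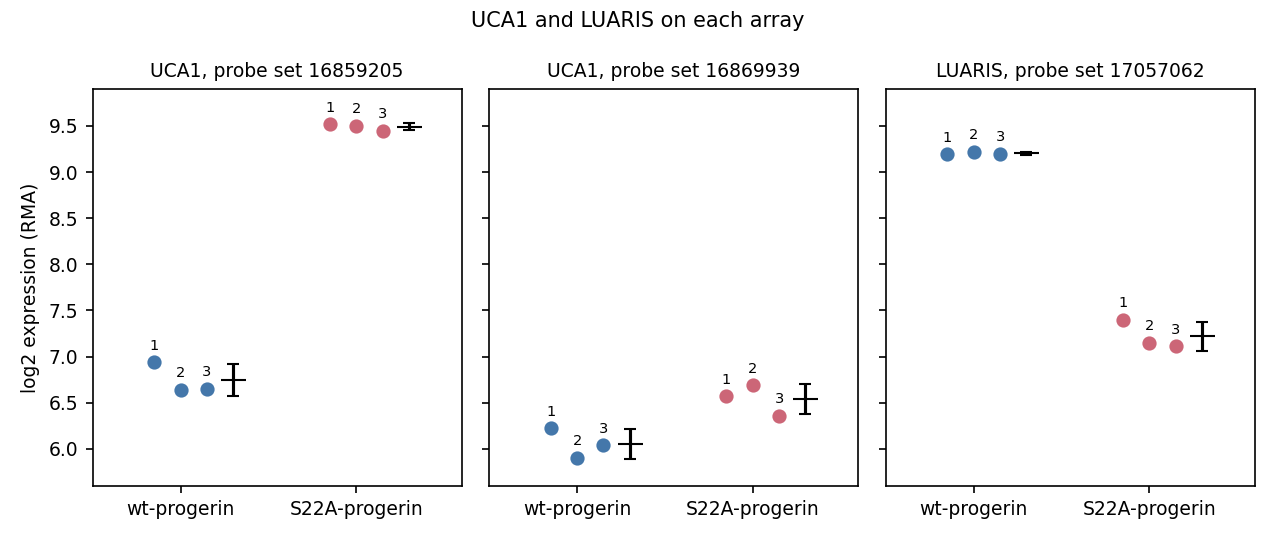
Log2 expression (RMA, vertical axis) of UCA1 on its 2 probe sets and of LUARIS on each array, by group. Numbers mark the replicate, and the black bars give the mean ± SD of 3 arrays. UCA1 stands at 9.45 to 9.52 in S22A-progerin on probe set 16859205 but at 6.36 to 6.69 on 16869939, and LUARIS drops from a mean of 9.21 to 7.22.

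The spread behind both values was of an ordinary size. The SD within groups, pooled over them, was 0.12 for UCA1 and 0.11 for LUARIS, against a median of 0.092 over all genes tested. The UCA1 difference was 22.9 times its pooled SD and the LUARIS difference 17.9 times. On the second UCA1 probe set it was 2.97 times. The wider of the 2 group SDs was in wt-progerin for UCA1 and in S22A-progerin for LUARIS, so that no single group was the noisier for both. For background, the groups did not overlap in 42.1% of all genes and in 28.0% of the long noncoding RNA genes.

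The size of these differences set both genes near the ends of the series. UCA1 ranked 9 among the rises of 14884 genes and 2 among those of 1398 long noncoding RNA genes. LUARIS ranked 3 among the falls of all genes and 1 among those of long noncoding RNA genes. On its second probe set UCA1 ranked 638 among the rises of 16098 named probe sets. By limma's test with Benjamini-Hochberg adjustment, 25.4% of all genes passed at an adjusted p under 0.05 (10.8% higher and 14.6% lower in S22A-progerin), against 15.3% of long noncoding RNA genes (7.51% higher and 7.80% lower). With at least a 2-fold difference, 10 long noncoding RNA genes passed as higher (0.715%) and 5 as lower (0.358%), against 1.02% and 0.511% of all genes. These shares are background, and nothing about UCA1 and LUARIS is read from them or from the ranks, since both were chosen on this contrast.

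LINC00520 was the long noncoding RNA that rose more than UCA1, from 5.39, 5.14 and 5.04 to 9.42, 9.40 and 9.12. Its difference was 4.13 (SE 0.117), 17.5-fold, at a limma adjusted p of 3.86e-06. RDUR, an RNA induced in antiviral signalling through RIG-I, followed UCA1 with a rise of 2.29 (SE 0.0693), 4.90-fold. LINC00622 rose 4.52-fold, LINC01822 3.98-fold and LINC02582 3.66-fold. On the side of LUARIS, LINC00312 fell by 1.76 on the log2 scale (SE 0.107), and LOC100505715 was 2.18-fold, MIR924HG 2.10-fold, GAS6-DT 2.02-fold and LINC00857 1.97-fold lower. The step from LUARIS and LINC00312 to the next fall was wide, from -1.76 to -1.12.

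**Figure D2:**
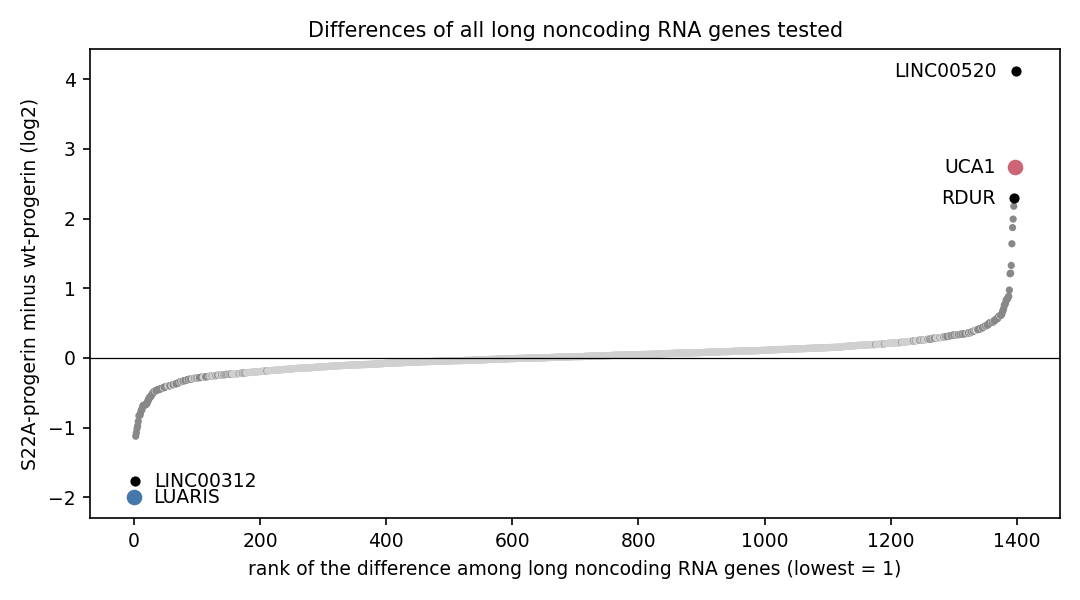
Differences (S22A-progerin minus wt-progerin, log2, vertical axis) of the 1398 long noncoding RNA genes tested, ordered by rank. Dark grey points passed limma's test and light grey points did not. UCA1 at 2.74 lies below LINC00520 at 4.13, and LUARIS at -1.99 lies at the low end next to LINC00312 at -1.76.

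Of the 12 tested genes nearest to UCA1, 6 on each side in RefSeq gene order, 1 rose and 1 fell. Over all genes 10.8% rose and 14.6% fell, so the count lies near the background, and the median difference was 0.014 beside -0.0037 over all genes. AKAP8L, an RNA-binding nuclear matrix protein gene, rose from 10.19, 10.22 and 10.14 to 10.53, 10.45 and 10.42, a difference of 0.28 (SE 0.0573, limma adjusted p = 0.0108). TPM4, an actin-binding tropomyosin gene, fell from 9.70, 9.71 and 9.72 to 8.94, 9.09 and 8.82, a difference of -0.76 (SE 0.0751, limma adjusted p = 5.05e-04). The nearest tested gene on the lower-coordinate side was PGLYRP2 at 0.04 (95% interval -0.14 to 0.21), with 16 annotated genes between. On the other side it was the long noncoding RNA LINC00661 at -0.12 (95% interval -0.41 to 0.17), with 11 between. The genes of the CYP4F and OR10H families that flank UCA1 most closely were not analysed here.

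Of the 12 tested genes nearest to LUARIS, 3 rose and 2 fell, where 10.8% of all genes rose and 14.6% fell, and their median was 0.065. STK17A, a kinase gene of the death-associated protein kinase family and the next annotated gene after LUARIS on the higher-coordinate side, rose from 9.80, 9.80 and 9.75 to 10.34, 10.46 and 10.29. That was a difference of 0.58 (SE 0.0627, limma adjusted p = 7.51e-04), opposite in sign to LUARIS. COA1, a gene of cytochrome c oxidase assembly, fell (-0.21, limma adjusted p = 0.0178), as did BLVRA, biliverdin reductase A (-0.35, limma adjusted p = 0.00683). On the lower-coordinate side SUGCT, a glutarate metabolism gene, rose (0.62, limma adjusted p = 0.00656), and so did GLI3, a Hedgehog transcription factor gene (0.19, limma adjusted p = 0.0484). GLI3 did not pass when any 1 of 5 arrays was left out or with arrays centred on their median, nor COA1 when any wt-progerin array was left out. HECW1, in which LUARIS lies, was not analysed here.

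**Figure D3:**
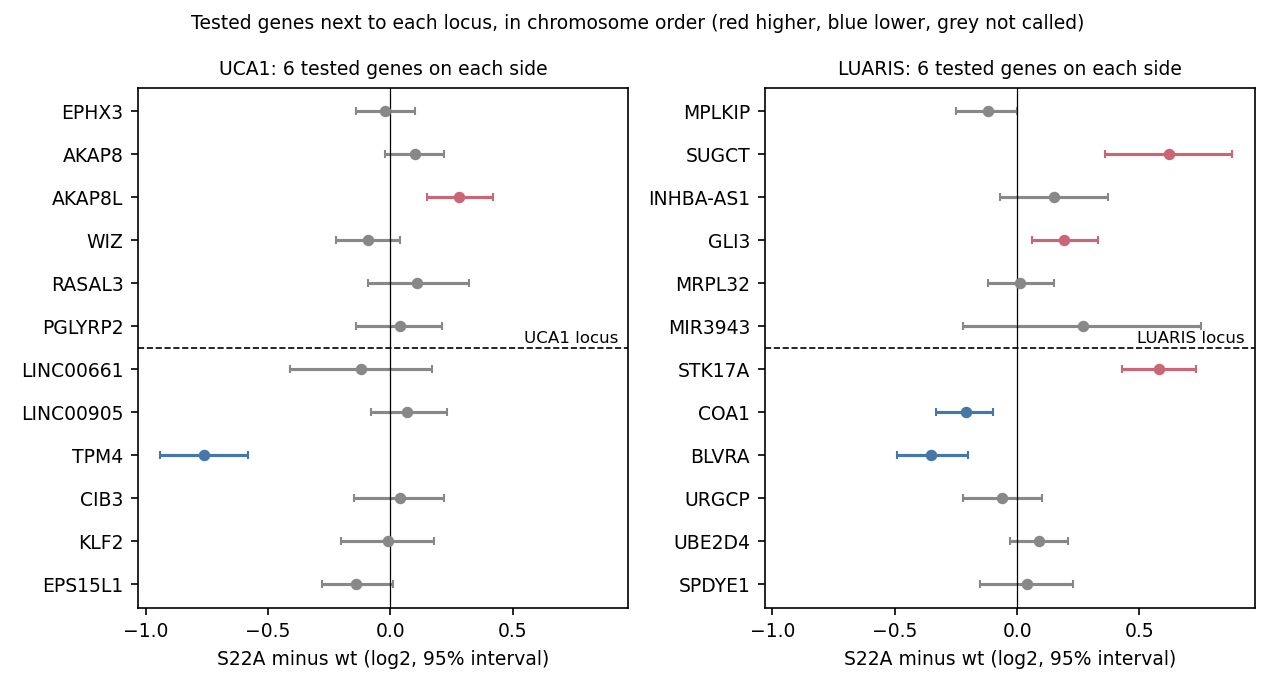
Differences (S22A-progerin minus wt-progerin, log2, with 95% intervals) of the 6 tested genes on each side of UCA1 and of LUARIS, listed in chromosome order with the locus as a dashed line. Red and blue genes passed limma's test as higher and lower, and grey ones did not. Around UCA1 only AKAP8L and TPM4 are coloured, and STK17A next to LUARIS lies at 0.58.

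Genes reported to act upstream of UCA1 moved in both directions. Of 15 listed transcription regulators 12 were measured, and 2 rose and 5 fell by limma's test, where 10.8% of all genes rose and 14.6% fell. Their median was -0.16. The mean of the list was 9.18 to 9.21 over the wt-progerin arrays, above the array medians. With the dimmer 50% of genes left out, 3734 of 7442 genes passed, 1369 as higher and 2365 as lower. In that setting 10 of the list were tested, and 2 rose and 6 fell. Whether level bears on the count was not tested. The rises were EPAS1, the hypoxia factor HIF-2 alpha, from a mean of 8.24 to 8.75 (0.51, SE 0.0643, limma adjusted p = 0.00153), and WWTR1, the Hippo pathway coactivator TAZ (0.37, SE 0.0547, limma adjusted p = 0.0031). ARID1A, a chromatin remodelling subunit, fell from 9.04, 8.92 and 8.94 to 8.23, 8.22 and 8.39 (-0.69, SE 0.0695, limma adjusted p = 5.55e-04). SP1 (-0.42), ETS2 (-0.38), SMAD4 (-0.34) and TEAD1 (-0.20), all DNA-binding transcription factor genes, fell as well. TEAD1 did not pass when any 1 of 5 arrays was left out or with the arrays quantile normalized again, nor SMAD4 without wt-progerin replicate 3. YAP1, the partner of TEAD factors, was at 0.06 (95% interval -0.07 to 0.18), and its other probe set was at -0.46 (limma adjusted p = 0.0501 over all probe sets). HIF1A and CEBPA were not analysed here.

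Among genes for proteins reported to bind UCA1 or act beside it, those that passed were lower. Of 10 listed, 8 were measured, 4 fell and 4 did not pass, where 14.6% of all genes fell and 25.4% passed in either direction. Their median was -0.28. The mean of this list was 10.09 to 10.11 over the wt-progerin arrays, far above the array medians. With the dimmer 50% of genes left out, 5 of 7 tested passed, all lower. In that setting 3734 of 7442 genes passed, 2365 of them lower. Whether level bears on the count was not tested. AMOT, which tethers YAP, fell most, from 8.56, 8.66 and 8.70 to 7.05, 6.92 and 7.17 (-1.60, SE 0.0786, limma adjusted p = 3.51e-05). EZH2, the histone methyltransferase of Polycomb, fell by 0.82 on the log2 scale (SE 0.0552, limma adjusted p = 1.10e-04). The RNA-binding protein genes HNRNPA1 (-0.49) and PTBP1 (-0.33) fell too, while YBX1, another RNA-binding protein gene, was at 0.04 (95% interval -0.09 to 0.16).

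Of 15 genes reported to respond to UCA1, 11 were measured, of which 1 rose, 3 fell and 7 did not pass, beside 25.4% of all genes that passed. Their median was -0.034. The mean of this list was 8.19 to 8.24 over the wt-progerin arrays, above the array medians. With the dimmer 50% of genes left out, 5 of 7 tested passed, beside 3734 of 7442 genes. Whether level bears on the count was not tested. HK2, hexokinase 2, a glycolysis enzyme, rose from 8.23, 8.27 and 8.18 to 8.75, 8.59 and 8.70 (0.45, SE 0.0615, limma adjusted p = 0.00212). The transcription factor genes SNAI2 (-0.65, limma adjusted p = 4.62e-04) and CREB1 (-0.43, limma adjusted p = 0.00248) and the growth factor receptor gene FGFR1 (-0.33, limma adjusted p = 0.0118) fell. ZEB1, a regulator of epithelial-mesenchymal transition, was at -0.03 (95% interval -0.17 to 0.10). SOX4 (-0.24, limma adjusted p = 0.0522) and STAT3 (0.16, limma adjusted p = 0.0557) did not pass. Under alternative settings SOX4 did pass in 4 and STAT3 in 3. CDKN1B, whose translation UCA1 is reported to limit through PTBP1, was not analysed here.

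**Figure D4:**
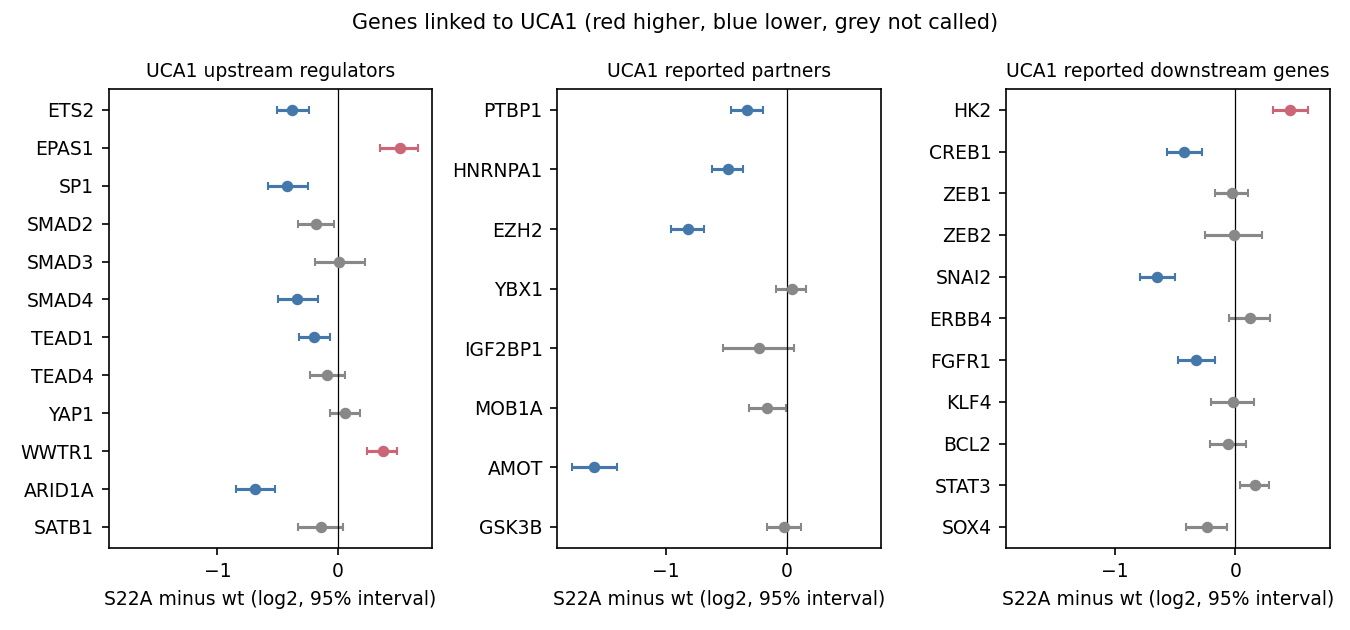
Differences (S22A-progerin minus wt-progerin, log2, with 95% intervals) of genes reported upstream of UCA1, as its partners and downstream of it. Red and blue genes passed limma's test as higher and lower, and grey ones did not. AMOT at -1.60 and EZH2 at -0.82 are the lowest, and EPAS1 at 0.51 and HK2 at 0.45 lie to the right.

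The reported partners of LUARIS, a list added after the gene's other name was seen in the annotation, did not pass. ATF2 was at -0.05 (95% interval -0.22 to 0.12, limma adjusted p = 0.68). HNRNPU was at -0.13 (95% interval -0.25 to -0.02, limma adjusted p = 0.0895). It did pass with the dimmer 50% of genes left out (limma adjusted p = 0.028) and with a trended, robust prior (limma adjusted p = 0.00567). Of 6 interferon-response genes reported to need LUARIS, 1 rose and 5 did not pass, a count near the 10.8% of all genes that rose, and their median was 0.18. The rise was CXCL10, an interferon-induced chemokine, from 4.41, 4.28 and 4.42 to 5.26, 5.27 and 5.08 (0.83, SE 0.0749, limma adjusted p = 3.45e-04), opposite in sign to LUARIS. CXCL11 (0.27), CCL5 (0.24), RSAD2 (0.13), IRF7 (0.03) and OASL (-0.26) did not pass. CXCL11 did pass with a fixed replicate block (limma adjusted p = 0.0396), and OASL with the arrays centred on their median (limma adjusted p = 0.0467) and with a trended, robust prior (limma adjusted p = 0.0453). CXCL10, CXCL11 and RSAD2, at wt-progerin means of 4.37, 4.75 and 4.89, lay below the array medians in both groups. CCL5, IRF7 and OASL, at 6.39, 6.52 and 6.96, lay above them. Whether these genes were expressed above background was not tested.

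Other long noncoding RNAs known from cancer moved in both directions. Of 65 listed, 41 were measured, 11 rose, 7 fell and 23 did not pass. The shares over all genes of this class were 7.51% higher and 7.80% lower, and over all genes tested 10.8% and 14.6%. The mean of the list was 7.44 to 7.48 over the wt-progerin arrays, above the array medians, and whether level bears on the count was not tested. The median difference of the list was -0.034 beside 0.019 over all long noncoding RNA genes, and none of those measured reached a 2-fold difference. TMPO-AS1, antisense to a nuclear envelope gene, fell by 0.67 on the log2 scale (SE 0.0581, limma adjusted p = 2.97e-04), and CRNDE, known from colorectal neoplasia, by 0.78 (SE 0.105, limma adjusted p = 0.00209). MALAT1, an abundant nuclear RNA, rose by 0.51 (SE 0.0533, limma adjusted p = 6.31e-04), and SNHG17, a snoRNA host gene, also by 0.51 (SE 0.076, limma adjusted p = 0.00312). MIAT and FOXD2-AS1, counted among the falls, each did not pass when any 1 of 4 arrays was left out. HULC, counted among the rises, did not pass in 2 alternative settings, nor EPB41L4A-AS1 in 1. GAS5, not counted, did pass in 4 alternative settings, DLEU1 in 2 and SNHG16 in 1. Of 11 long noncoding RNAs linked to p53, 3 were measured and 2 rose, where 7.51% of all long noncoding RNA genes and 10.8% of all genes did. LINC-PINT rose 3.11-fold, from 8.38, 8.58 and 8.40 to 9.97, 9.93 and 10.37, and PURPL, which limits p53, rose 2.31-fold. MEG3, an imprinted RNA that can activate p53, was at -0.08. Of 9 noncoding RNA genes linked to inflammation, 2 were measured, of which 1 rose and 1 fell, beside 25.4% of all genes that passed. The microRNA gene MIR146A, a brake on NF-kB signalling, rose by 2.35, and MIR22HG fell (-0.25, limma adjusted p = 0.0418), though not when any 1 of 5 arrays was left out.

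The genes whose 6 array values lay closest to those of UCA1, each centred on its mean, included 2 chemokine genes. The measure was the root mean square distance on the log2 scale over the 6 arrays, which rests mostly on a like difference between the groups. CCL2, a monocyte chemokine, was nearest at 0.0863, with 8.65, 8.51 and 8.43 in wt-progerin and 11.44, 11.46 and 11.23 in S22A-progerin. Its wt-progerin replicate 1 was the highest, as for UCA1, but the measure itself favours a like order of arrays, so nothing further is read from that. TMEM156 followed at 0.120, CCL20, a chemokine that binds CCR6, at 0.152, the cytokine gene IL24 at 0.199 and MIR146A at 0.212. Nearest to LUARIS was SHOC1, a gene of meiotic crossing over, at 0.0576. Its values were 7.94, 7.92 and 7.90 in wt-progerin and 5.97, 5.79 and 5.83 in S22A-progerin. S22A-progerin replicate 1 was the highest of its group, as for LUARIS, which the measure likewise favours. LINC00312 lay at 0.138, TMEM45A at 0.157, the NADPH oxidase gene NOX4 at 0.160 and SDC2, syndecan-2, at 0.168.

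**Figure D5:**
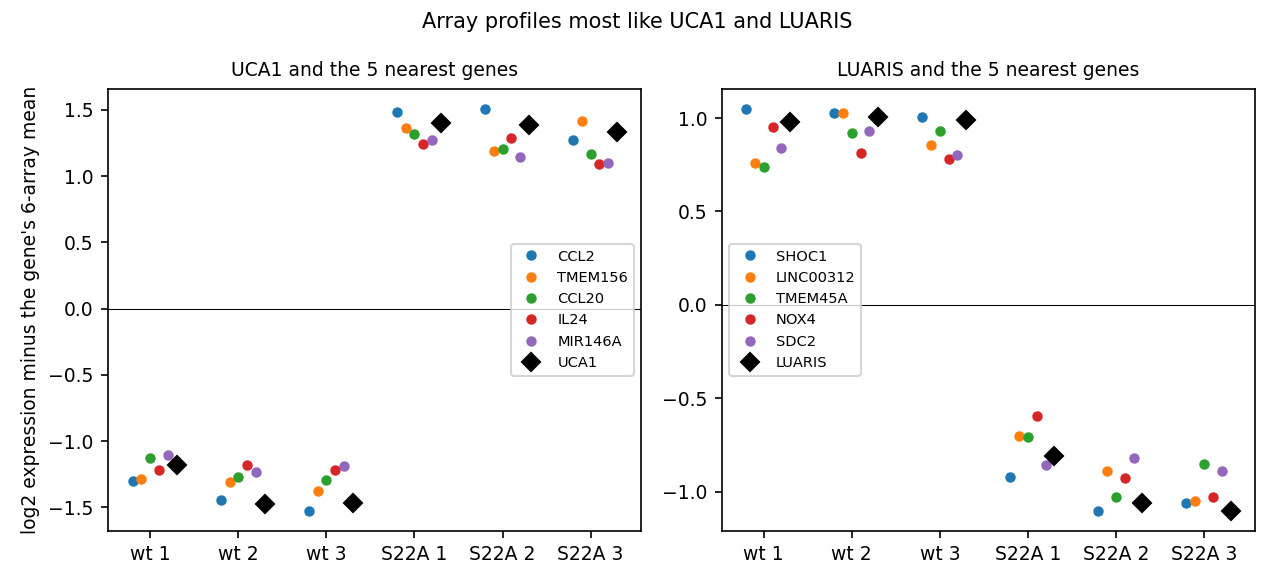
Log2 expression minus the mean over the 6 arrays (vertical axis) for UCA1, LUARIS and the 5 genes nearest to each, by array. Black diamonds are UCA1 and LUARIS, and coloured points the other genes. CCL2, at a distance of 0.0863 from UCA1, and SHOC1, at 0.0576 from LUARIS, lie closest to the diamonds.

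Markers of epithelium, where UCA1 is best known, were compared as well. Of 15 epithelial and urothelial markers 14 were measured, of which 1 rose, 1 fell and 12 did not pass, where 10.8% of all genes rose and 14.6% fell. The mean of the list ran from 6.34 to 6.38 over the wt-progerin arrays and from 6.32 to 6.38 over the S22A-progerin arrays. KRT18, a simple-epithelium keratin, rose (0.51, limma adjusted p = 6.10e-04), and KRT14, a basal keratin, fell (-0.32, limma adjusted p = 0.0218), though not when any 1 of 4 arrays was left out. The uroplakin UPK2 was at 0.20 (95% interval -0.15 to 0.56). EPCAM did pass as lower without wt-progerin replicate 3, and KRT5 without wt-progerin replicate 2. For the labelled cell type, 5 of 11 mesenchymal and osteosarcoma markers were measured, of which 1 rose, 3 fell and 1 did not pass, where 10.8% of all genes rose and 14.6% fell. The mean of this list was 8.96 to 9.01 over the wt-progerin arrays, above the array medians, and whether level bears on the count was not tested. VIM, an intermediate filament gene, did not pass and was read at 10.81 to 10.91 on all arrays. The falls were RUNX2, the osteoblast transcription factor (-0.74, limma adjusted p = 9.60e-04), FN1, fibronectin (-0.42, limma adjusted p = 9.84e-04), and THY1, a surface glycoprotein (-0.32, limma adjusted p = 0.00465). S100A4, a calcium-binding protein gene, rose (0.38, limma adjusted p = 0.0304), though not when any 1 of 4 arrays was left out. COL1A1, COL1A2 and SPARC were not analysed here. The 4 leukocyte markers measured of 8 gave 0 calls by limma and 0 at an unadjusted p under 0.05. Among them LYZ, lysozyme, passed as higher without wt-progerin replicate 1 (limma adjusted p = 0.0374) and TYROBP, an immune signalling adaptor, without S22A-progerin replicate 3 (limma adjusted p = 0.0409). The other LYZ probe set was lower, at -0.24 (limma adjusted p = 0.0469 over all probe sets).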

How the data were processed

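Per the submitters' processing notes, the authors used RMA and Affymetrix Expression Console, and the deposited values are log2 expression per probe set. Versions, settings and the build: not given in the sources used here. Without a detection call a low level may be background, and a fold from it is understated. Values ran from 1.27 to 14.05. Probe sets were named through the platform annotation (16098 named, 37519 not), and symbols were checked through Entrez identifiers against RefSeq GRCh38.p14, which changed 0. For 779 genes with several probe sets the one with the highest mean was used.

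All 14884 genes were tested with limma 3.58.1 (R 4.3.3), lmFit and eBayes, 2 groups, no covariate, two-sided, Benjamini-Hochberg adjusted. On simulated data of 14884 genes with the means and spreads of this comparison, 36 of 50 genes changed by 0.5 (log2) were recovered, 45 of 50 at 1 and 50 of 50 at 2, and 4 of 185 calls were false. Only 50 genes were changed at each of 0.5, 1, 2 and 2.7, with noise independent between genes. That is a far smaller share than the 25.4% that passed in the data, so these rates do not carry over to it directly.

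The members and lists were chosen with earlier results of these data known, and the LUARIS lists were added after the annotation was read. Named were neighbours, members of the UCA1 lists that passed and some that did not, up to 4 of each long noncoding RNA list by p, the 5 largest rises and falls among long noncoding RNA genes, and the 5 nearest profiles; other names were picked after their values were seen. The p-values rest on the spread among 3 arrays a group, whose number limits the precision.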

Additional observations from a re-analysis of the deposited data

How the results depend on the processing

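The UCA1 difference moved beyond its spread in 1 of 13 alternatives, from 2.74 to 1.61 with probe sets averaged, and the LUARIS difference in none of 13. Some of these alternatives could not move a difference. A replicate block leaves it as it is in this balanced design, and testing every probe set on its own reads the same probe set. Averaging could not move LUARIS, which has 1 probe set. The second UCA1 probe set, at 0.48, was not among the alternatives. With each array left out in turn UCA1 ran from 2.69 to 2.84 and LUARIS from -2.08 to -1.93. All these kept their direction. Of 3777 genes that passed, 2078 did at an adjusted p under 0.01 and 228 with at least a 2-fold difference. Under that fold limit 0 cancer long noncoding RNAs, 0 upstream regulators, 1 reported partner, 0 downstream genes and 0 neighbours of the members passed, and under the stricter p 4 neighbours. With every probe set tested on its own, 4 probe sets of p53-linked long noncoding RNAs passed. Of the inflammation-linked genes 2 passed. With dim genes left out only 1 of them was tested, and it passed as lower. With either replicate block, under the stricter p or with the fold limit 2 were tested and 1 passed, as higher. With single arrays left out 1 to 2 passed. Leaving out single arrays gave 2647 to 3601 genes, 16 to 17 cancer long noncoding RNAs, 5 to 7 upstream regulators, 4 to 5 downstream genes and 5 to 7 neighbours. Deviations of same-numbered arrays correlated at -0.0195, -0.0549 and -0.00558, so no shared shift by replicate number was seen. These values cannot tell whether same-numbered arrays were prepared together. The fixed replicate block gave 2990 genes and the random one 3544. The UCA1 and LUARIS differences, 2.74 and -1.99, could not change under either block. No detection call was used, so signal over background was not analysed here.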
